A study of Mus musculus with 24 samples.

Results

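Interferon-stimulated genes are the genes that cells switch on when interferons bind their receptors. The 40 genes described here were chosen by name as widely used members of this response, and all 40 were found by symbol in each of the 4 count tables of the study, among 48820 entries per table. The rule uses no measured value, but the members were chosen with earlier results of these data known. The 40 genes were grouped by the roles of their products: 4 transcription factors, 3 IFIT proteins, 5 members of the 2′-5′ oligoadenylate synthetase (OAS) family, 6 nucleic acid sensors and kinases, 4 members of the ISG15 pathway, 2 Mx GTPases, viperin with 5 further restriction factors or neighbours, 4 members of the PARP and DTX3L group, and 6 other interferon-induced proteins.

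Type I interferons bind the receptor IFNAR1-IFNAR2, and the kinases JAK1 and TYK2 then phosphorylate STAT proteins, among them STAT2, which joins IRF9 in a complex that binds interferon-stimulated response elements in promoters. The target genes encode proteins that detect viral RNA and DNA, degrade or sequester it, and tag proteins with ISG15, and IRF7 among them feeds back on interferon production. Kupffer cells, the resident macrophages of the liver sinusoids, and the endothelial cells (ECs) that line the sinusoids both carry these sensors and receptors.

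The study asked how BMP9 (encoded by *Gdf2*) and BMP10 from hepatic stellate cells act on liver macrophages and ECs, and compared RNA-seq counts in mice on a C57BL/6 background. Bmp9/10-HSC-KO mice carry floxed *Gdf2* and *Bmp10* alleles with *Lrat*Cre, which is active in hepatic stellate cells, and are written HSC-KO here. Liver macrophages sorted as CD45+Ly6C-F4/80+CD64+ cells, ECs sorted as CD45-CD31+ cells and whole liver were taken from HSC-KO and control mice, the sorted cells at 8 to 10 weeks and the livers at 12 weeks of age. Smad4FF cKO mice carry floxed *Smad4* with *Vav1*Cre, which is active in hematopoietic cells, and their macrophages were set against those of Smad4FF mice, also at 8 to 10 weeks. Each of the 8 groups had 3 libraries from separate mice, but 3 mice of the *Gdf2*/*Bmp10* experiment gave both a macrophage and an EC library, so these tables are not independent of each other.

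Library totals ranged from 60911527 to 110879155 counts. The targeted genes followed their labels: *Gdf2* had 2036, 720 and 2030 counts in control livers and 287, 178 and 189 in HSC-KO livers, and *Smad4* fell in Smad4FF cKO macrophages (log2 fold change -1.39, standard error 0.16, adjusted p = 0.0023). Defining markers were checked by their summed CPM, counts scaled to a common library total with TMM factors. In macrophages the 8 Kupffer cell markers summed to 31018-32823 CPM in controls and 166-496 in HSC-KO, and to 26831-34313 in Smad4FF and 1015-1128 in Smad4FF cKO. The 6 general macrophage markers summed to 15889-17540 CPM in controls and 13593-15267 in HSC-KO, with none called, and to 18081-21824 in Smad4FF and 9352-13008 in Smad4FF cKO, where *Lyz2* (log2 fold change -1.16) and *Adgre1* (-1.31) fell. Neither pair of groups overlapped. The 12 EC markers summed to 19171-20050 CPM in control and 11899-14255 in HSC-KO ECs. *Xist* was detected in 1 control and 2 HSC-KO libraries of the macrophages, in the same numbers of the ECs, in 3 control and 2 HSC-KO livers, and in no library of the *Smad4* experiment.

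Promoter windows were searched for the core letters of the response element. RefSeq (GRCm38.p6) gave a window from 250 bases before to 50 after the start for 29 of the 40 members. The letters GAAANNGAAA, or TTTCNNTTTC for the other strand, which form the core of the interferon-stimulated response element and may overlap each other, were found in 13 of these 29 windows (44.8%), against 1079 of 27025 genes with a window (3.99%). Printed here are the 200 bases up to the start for 5 members that hold the motif there and that the results turn on. By the calls defined below, *Isg15*, *Ifit1*, *Ifit3* and *Rsad2* rose in ECs, where *Oas3* was too low to test. In HSC-KO macrophages *Rsad2* and *Oas3* fell and the others were not called. Capitals mark the motif. The windows are chr4:156200819-156201018 on the minus strand for *Isg15*, with 3 overlapping matches that begin 78, 72 and 66 bases before the start, chr19:34640689-34640888 on the plus strand for *Ifit1*, chr19:34583329-34583528 on the plus strand for *Ifit3*, chr12:26456453-26456652 on the minus strand for *Rsad2* and chr5:120777660-120777859 on the minus strand for *Oas3*.
Isg15: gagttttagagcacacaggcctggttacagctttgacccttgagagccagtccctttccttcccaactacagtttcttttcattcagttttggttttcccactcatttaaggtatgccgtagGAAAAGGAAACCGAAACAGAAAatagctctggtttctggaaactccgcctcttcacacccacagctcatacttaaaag
Ifit1: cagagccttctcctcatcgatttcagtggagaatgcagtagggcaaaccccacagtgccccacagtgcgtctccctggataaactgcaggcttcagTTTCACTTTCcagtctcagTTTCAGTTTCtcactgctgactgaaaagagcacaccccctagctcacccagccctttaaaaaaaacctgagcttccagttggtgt
Ifit3: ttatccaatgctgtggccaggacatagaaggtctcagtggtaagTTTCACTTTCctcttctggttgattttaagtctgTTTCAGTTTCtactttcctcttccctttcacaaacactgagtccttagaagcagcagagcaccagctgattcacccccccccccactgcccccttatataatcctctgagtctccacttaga
Rsad2: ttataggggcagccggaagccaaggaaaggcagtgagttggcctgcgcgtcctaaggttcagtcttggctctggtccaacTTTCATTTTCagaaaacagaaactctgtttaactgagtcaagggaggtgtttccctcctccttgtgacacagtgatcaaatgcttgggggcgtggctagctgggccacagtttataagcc
Oas3: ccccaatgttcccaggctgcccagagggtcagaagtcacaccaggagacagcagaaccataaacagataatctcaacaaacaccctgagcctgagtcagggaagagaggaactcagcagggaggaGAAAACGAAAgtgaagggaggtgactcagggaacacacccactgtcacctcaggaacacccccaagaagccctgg
The windows of *Irf7*, *Helz2*, *Oasl1* and *Cmpk2* hold no match to these letters, which says nothing of other forms of the element or of elements outside the window. A match is a description of the sequence and not evidence that a factor binds there.

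The members called in ECs were all higher in HSC-KO, and those called in macrophages were all lower in the mutants. In HSC-KO ECs 15 of the 39 members tested rose and none fell, where a call needs a Benjamini-Hochberg adjusted p under 0.05 over all genes tested by edgeR's quasi-likelihood test and a change of more than 1 on the log2 scale. In HSC-KO macrophages 5 of 40 fell and none rose, and in Smad4FF cKO macrophages 9 of 40 fell and none rose. In HSC-KO livers 1 rose and 2 fell. Over all genes, the share called higher was 7.68% in ECs, 6.32% in HSC-KO macrophages, 2.76% in Smad4FF cKO macrophages and 1.03% in livers, and the share called lower was 6.01%, 5.34%, 2.67% and 1.45% in the same order. By the adjusted p alone, without the size, 28 members were higher and 2 lower in ECs, against 10.3% and 9.77% of all genes, 2 and 8 in HSC-KO macrophages, against 9.29% and 9.87%, 0 and 16 in Smad4FF cKO macrophages, against 3.71% and 4.03%, and 1 and 2 in livers, against 1.24% and 1.59%.

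The median log2 fold change was 0.85 in ECs, -0.13 in HSC-KO macrophages, -0.69 in Smad4FF cKO macrophages and -0.03 in livers, against 0.0047, 0.04, 0.04 and -0.01 over all genes tested. In ECs 37 of 39 members had a log2 fold change above 0, as did 50.5% of all genes, and in 32 every HSC-KO library was above every control library, a separation that 20.2% of all genes showed in that direction and 20.2% in the other, where 2 members had it. In Smad4FF cKO macrophages 37 of 40 were below 0 and 27 had all cKO libraries below all Smad4FF libraries, against 14.5% of all genes, and none was separated higher, against 15%. Over all genes 52.9% were above 0 there, 52.7% in HSC-KO macrophages and 48.6% in livers. In HSC-KO macrophages 28 of 40 were below 0, with 13 separated lower and 5 higher, against 19.6% and 20.7% of all genes. In livers 23 of 40 were below 0, and 11 were separated lower and 2 higher, against 10.9% and 8.8%.

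The single libraries were summarised by the median over members of log2(CPM + 1). It was 5.97, 5.78 and 5.88 in the control ECs and 6.65, 6.43 and 6.81 in the HSC-KO ECs. In macrophages it was 6.77, 6.84 and 7.03 in controls and 6.32, 6.53 and 6.41 in HSC-KO. The Smad4FF macrophages had 6.49, 6.52 and 6.39 and the Smad4FF cKO macrophages 5.68, 5.90 and 5.40. By this measure the groups did not overlap in any of the 3 sorted-cell comparisons. By the median over members of the log2 deviation from each member's own control mean, the macrophages of the HSC-KO experiment did overlap, at -0.09, -0.06 and 0.11 in controls and -0.25, -0.02 and -0.18 in HSC-KO, whereas ECs (-0.04 to 0.08 against 0.67 to 1.00) and the macrophages of the *Smad4* experiment (-0.22 to 0.12 against -0.81 to -0.41) again did not. The liver medians did overlap, at 3.95, 4.13 and 4.05 in controls and 4.13, 4.33 and 3.71 in HSC-KO. With 3 libraries against 3, an exact two-sided permutation test of such a median cannot go below p = 0.10, so none is given. The lowest liver value came from HSC-KO replicate 3, which had the lowest level of its group for 38 of the 40 members and is the liver library without *Xist*.

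**Figure D1:**
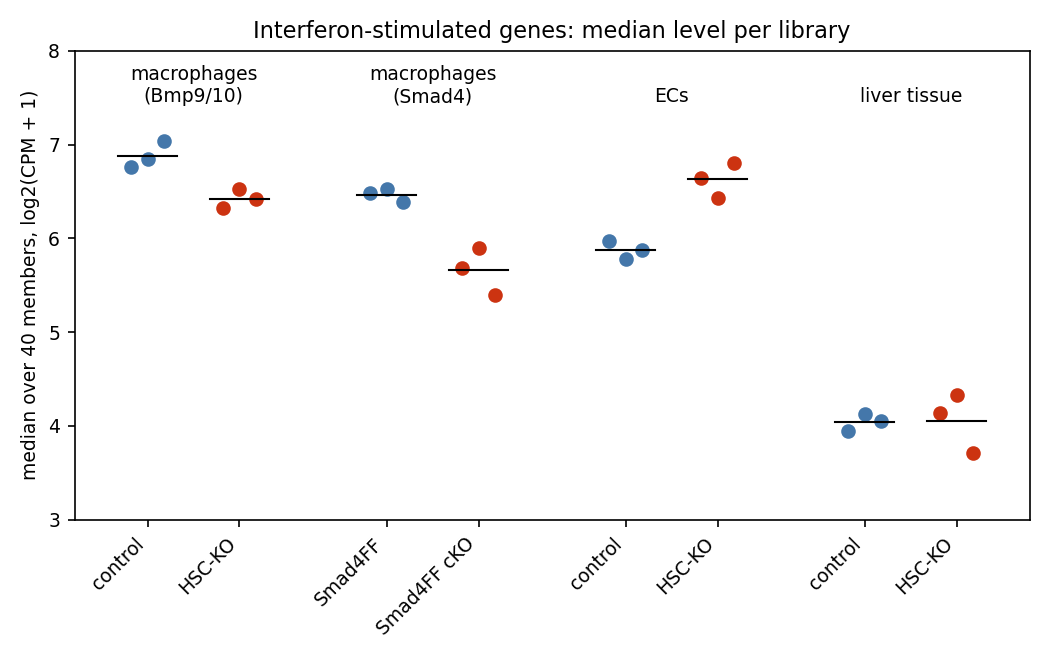
Median log2(CPM + 1) over the 40 members in each of the 24 libraries, in controls (blue) and mutants (red), with each point 1 library and each bar the mean of its 3 libraries. The HSC-KO ECs lie between 6.43 and 6.81, above the control ECs, while by this measure the mutant macrophages of both experiments lie below their controls and the liver groups overlap.

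**Figure D2:**
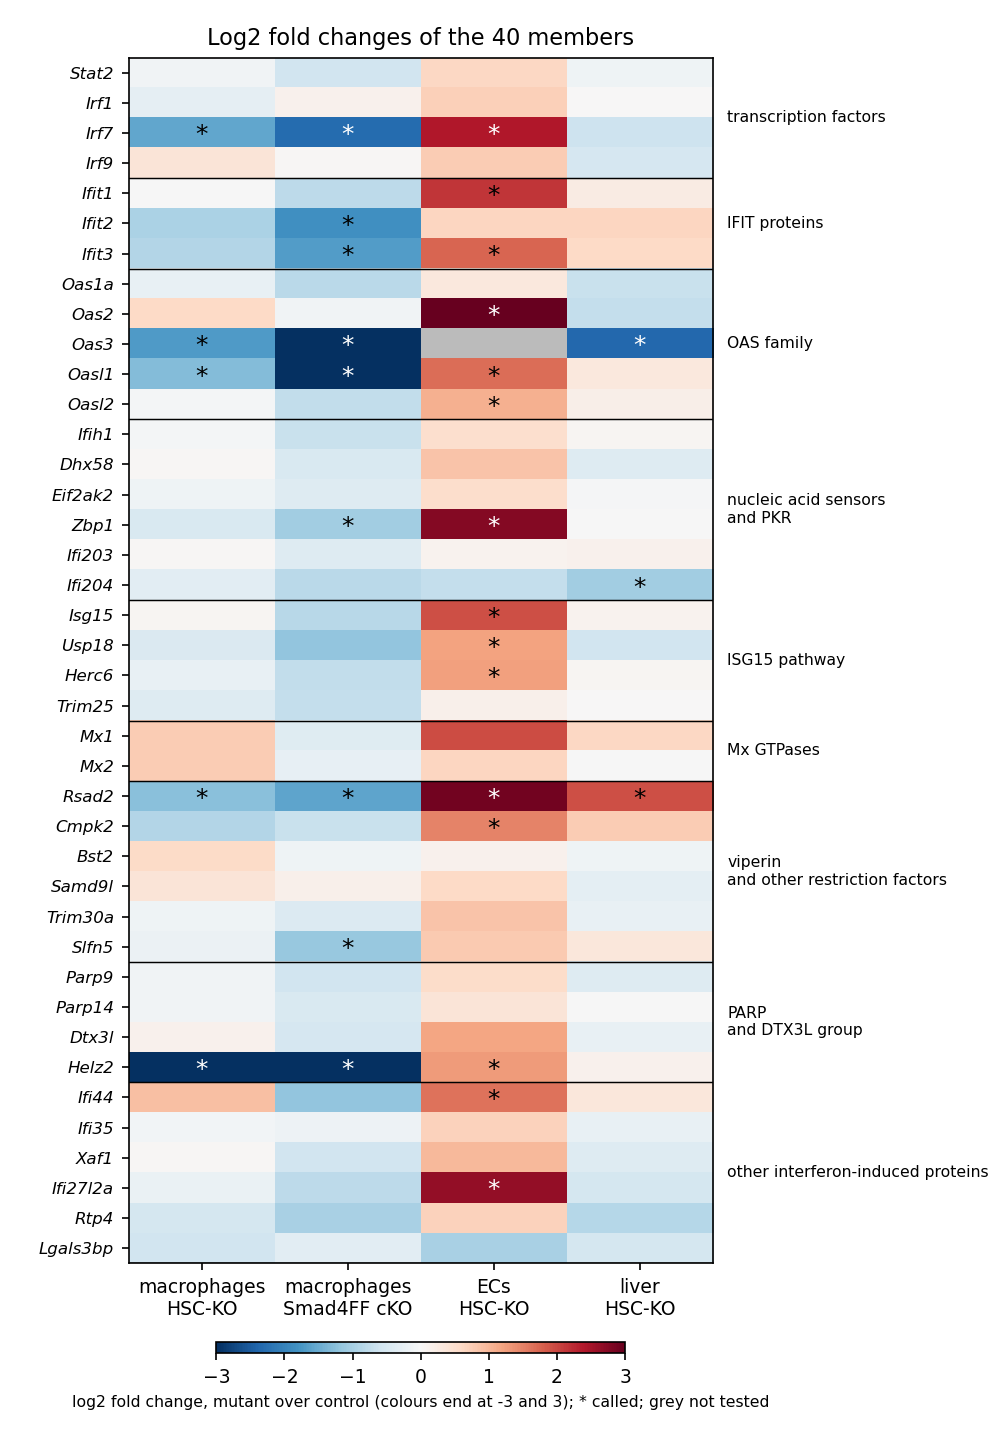
Log2 fold change of mutant over control for each of the 40 members (rows, grouped by role) in the 4 comparisons (columns), with colour for the value, an asterisk for a call and grey for a gene too low to test. The EC column is mostly red, with 15 asterisks, and the Smad4FF cKO column mostly blue, with 9.

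Markers of other cells moved with these groups, and their part in the results was not tested. In bulk samples fewer cells of a type and less RNA per cell cannot be told apart. In HSC-KO macrophages, beside the loss of Kupffer cell markers, 6 monocyte markers summed to 1412-2140 CPM against 125-213 in controls, nearly all from *Cx3cr1*, with 3 of the 5 tested called higher and *Plac8* lower, the 5 B cell markers to 531-731 against 76.6-115, the 9 T and NK cell markers to 57.9-193 against 9.70-24.8, and the 12 EC markers to 76.8-162 against 559-840. Of the 12 EC markers 4 were called lower, and the list includes *Cdh5*, which the paper counts among genes of Kupffer cell identity. Of the 5 B cell markers only *Ighm* (log2 fold change 5.19) and *Cd79b* (1.24) were called, and their median was -0.52. The 7 markers of plasmacytoid dendritic cells, the strongest producers of interferon, summed to 117-130 CPM in HSC-KO and 82.6-92.6 in control macrophages. Of the 6 tested, *Siglech* alone was called, with 4.58-6.20 CPM in HSC-KO and 0.07-0.34 in controls. In Smad4FF cKO macrophages the EC markers overlapped (1742-2241 against 906-2563 CPM), the monocyte markers were 651-920 against 147-187, and the B cell markers were 275-322 against 123-190, with *Ighm* (log2 fold change 1.32) and *Cd79b* (1.18) the only ones called and a median of -0.20. The cholangiocyte markers were 10.3-22.5 against 4.31-5.57 CPM and the stellate cell markers 141-193 against 201-234. Of the 6 monocyte markers *Cx3cr1* was called higher (log2 fold change 6.14) and *Plac8* lower (-4.02), and their median was -0.78. The plasmacytoid dendritic cell markers overlapped (107-118 against 107.5-109 CPM), with a median of -0.30 and *Siglech* the only one called, at 1.49-2.28 CPM against 0.155-0.319.

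In ECs the Kupffer cell markers summed to 302-329 CPM in controls and 1.93-10.1 in HSC-KO, with *Clec1b*, a gene that liver sinusoidal ECs also express, the largest part, and 5 to 7 of the 8 markers at 0 in the HSC-KO libraries. The general macrophage markers summed to 220-325 CPM in controls and 65.0-107 in HSC-KO. Monocyte markers summed to 84.9-116 CPM in HSC-KO and 11.1-13.9 in control ECs, of which *Ly6c2* made 62.1-77.0 in HSC-KO. Of the 3 tested, *Ly6c2* (log2 fold change 8.82) and *Plac8* (1.14) rose, while *Chil3* was at 0 in all 6 libraries and *Ccr2* and *Cx3cr1* were at most 0.112 and 0.558 CPM. *Siglech* was at 0 in the HSC-KO ECs. The summed plasmacytoid dendritic cell markers were 657-921 CPM in HSC-KO and 269-368 in control ECs. Nearly all of this sum was *Tcf4* (mean log2 CPM 9.13), the 1 marker called of 2 tested (log2 fold change 1.31). The other, *Ccr9* (mean log2 CPM -2.80), had a log2 fold change of -1.40. The T and NK cell markers were at most 0.512 CPM. The stellate cell markers summed to 124-159 CPM in HSC-KO and 187-261 in control ECs. The neutrophil markers summed to 1.11-1.28 CPM in HSC-KO and at most 0.0488 in controls, and *Csf3r*, the 1 marker of that list high enough to test, rose (5.99). In livers the Kupffer cell markers were 259-453 CPM in controls and 12.2-212 in HSC-KO, where 210.1 of the 212 in replicate 3 came from *C6*, and the general macrophage markers were 179-283 and 68.7-107. Other lists were lower in every HSC-KO liver as well, with 55.1-84.0 CPM in controls and 26.1-36.1 in HSC-KO for cholangiocytes, 12.04-17.4 and 4.64-7.92 for B cells, 7.18-11.4 and 2.52-3.84 for neutrophils, 6.68-7.002 and 0.780-4.15 for T and NK cells, and 529-650.1 and 443-508 for ECs. The median log2 fold changes of these lists were -0.77, -1.68, -1.67, -1.24 and -0.09 in that order. Of the 12 EC markers 2 were called lower, so the lower EC sum was not shared across that list. The hepatocyte markers (106445-130413 and 139418-186898 CPM) and the stellate cell markers (356-473 and 570-684) were higher in every HSC-KO liver, with no single marker called.

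The transcription factors come first in the pathway, and *Irf7*, the factor that amplifies interferon production, changed most of the 4. *Irf7* lies at chr7:141262706-141266481 on the minus strand (GRCm38). In ECs it had 121, 116 and 115 CPM in controls and 445, 747 and 672 in HSC-KO, and it rose (log2 fold change 2.40, standard error 0.21, adjusted p = 0.00035). In macrophages it had 1492, 1630.1 and 2619 CPM in controls and 557, 631 and 753 in HSC-KO, and it fell (log2 fold change -1.56, standard error 0.24, adjusted p = 0.0041). The gene thus moved in opposite directions in the 2 cell types, with no overlap between groups in either. Smad4FF macrophages had 2049, 3024 and 1934 CPM and Smad4FF cKO macrophages 559, 532 and 335, and *Irf7* fell there too (log2 fold change -2.30, standard error 0.26, adjusted p = 0.0021). In livers the values were 47.9, 54.5 and 49.9 in controls and 39.7, 38.3 and 20.8 CPM in HSC-KO, which did not overlap but did not pass the test either (log2 fold change -0.62, standard error 0.24, adjusted p = 0.31). An exon of *Irf7* overlaps *Phrf1* on the opposite strand, and the strand setting of the counting is not given in the sources used here.

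*Irf9*, the DNA-binding partner of STAT2, had 129.8, 128 and 140.0 CPM in control and 219.5, 232 and 228 in HSC-KO ECs. The EC groups were well apart and the adjusted p passed while the change stayed under 1 (log2 fold change 0.77, standard error 0.12, adjusted p = 0.0035). In macrophages *Irf9* had 147, 141 and 142 CPM in controls and 204, 185 and 176 in HSC-KO, again higher in every HSC-KO library (log2 fold change 0.39, standard error 0.11, adjusted p = 0.04), which sets it apart from *Irf7* in the same cells. It had 125, 145 and 136 CPM in Smad4FF and 146, 146 and 124 in Smad4FF cKO macrophages, which overlap (log2 fold change 0.03, standard error 0.12, adjusted p = 0.91). Liver values were 44.9, 50.4 and 39.9 in controls and 39.6, 31.3 and 24.7 CPM in HSC-KO (log2 fold change -0.50, standard error 0.19, adjusted p = 0.3). Exons of *Irf9* overlap *Rnf31* on the same strand.

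*Irf1*, a factor that responds to type I and type II interferon, had 167, 188 and 158 CPM in control and 281, 224 and 339 in HSC-KO ECs, with an adjusted p under 0.05 and a change under 1 (log2 fold change 0.72, standard error 0.18, adjusted p = 0.027). Its groups overlapped in the other 3 comparisons. Macrophages had 275, 185 and 251 CPM in controls and 169, 208 and 208 in HSC-KO (log2 fold change -0.28, standard error 0.17, adjusted p = 0.31), and in the *Smad4* experiment 157, 196 and 198 in Smad4FF and 145, 259 and 196 in Smad4FF cKO (log2 fold change 0.13, standard error 0.22, adjusted p = 0.8). Livers had 26.7, 39.8 and 25.2 and 27.8, 38.8 and 25.6 CPM (log2 fold change 0.01). *Stat2*, which encodes the partner of IRF9, was called in none of the 4 comparisons of mutant and control. It had 51.8, 46.3 and 54.7 CPM in control and 72.8, 57.8 and 104 in HSC-KO ECs (log2 fold change 0.62, standard error 0.22, adjusted p = 0.087), and 77.9, 81.9 and 77.7 in Smad4FF and 56.6, 59.4 and 43.4 in Smad4FF cKO macrophages (log2 fold change -0.58, standard error 0.14, adjusted p = 0.054), with no overlap in either. In HSC-KO macrophages (115, 97.9 and 117 against 94.5, 103 and 107 CPM) and livers (86.1, 103 and 95.6 against 81.4, 91.9 and 86.6) the groups overlapped.

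The IFIT proteins bind viral RNA that lacks the cap methylation of host mRNA, and their genes lie side by side on chromosome 19. *Ifit1* had 36.9, 32.2 and 32.4 CPM in control and 108, 169 and 173 in HSC-KO ECs, and rose (log2 fold change 2.15, standard error 0.20, adjusted p = 0.00044). In macrophages the *Ifit1* groups overlapped, at 28.8, 31.8 and 44.6 CPM in controls and 35.7, 37.7 and 31.2 in HSC-KO (log2 fold change -0.01). *Ifit3* had 90.4, 127 and 92.6 CPM in control and 261, 372 and 399 in HSC-KO ECs, and rose as well (log2 fold change 1.73, standard error 0.22, adjusted p = 0.0016). In Smad4FF macrophages *Ifit3* had 181, 304 and 187 CPM and in Smad4FF cKO macrophages 65, 99.9 and 45.5, and it fell (log2 fold change -1.67, standard error 0.32, adjusted p = 0.021). In HSC-KO macrophages it was lower in every library, 151, 189 and 134 against 192, 277 and 403 CPM, without passing the test (log2 fold change -0.88, standard error 0.27, adjusted p = 0.057). *Ifit3* has a near copy, *Ifit3b*, with which the counting could have shared reads. *Ifit2* fell in Smad4FF cKO macrophages, from 63.4, 72.9 and 52.7 to 20.2, 20.2 and 12.4 CPM (log2 fold change -1.84, standard error 0.23, adjusted p = 0.0032). In ECs *Ifit2* had 94.8, 100.3 and 73.8 CPM in controls and 109.7, 162 and 149 in HSC-KO, a smaller change than that of its neighbours (0.64, standard error 0.19, adjusted p = 0.049), and in HSC-KO macrophages 102, 114 and 133 and 52.3, 84.3 and 43.9 (-0.95, standard error 0.24, adjusted p = 0.032). In livers none of the 3 was called.

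The OAS enzymes make 2′-5′ oligoadenylates that activate RNase L, whereas the OAS-like protein OASL1 binds RNA without that activity and restrains the translation of *Irf7* mRNA. *Oasl1* (chr5:114923240-114937915, plus strand) had 13.5, 10.6 and 11.7 CPM in control and 28.5, 36.1 and 50.7 in HSC-KO ECs, and rose (log2 fold change 1.68, standard error 0.23, adjusted p = 0.0024). In HSC-KO macrophages it fell, from 109.6, 114 and 129.9 to 50.7, 49.2 and 44.5 CPM (log2 fold change -1.29, standard error 0.12, adjusted p = 0.00038). The fall in Smad4FF cKO macrophages was from 117, 131 and 98 to 18.5, 11.8 and 6.23 CPM (log2 fold change -3.24, standard error 0.38, adjusted p = 0.0026). No group overlapped its control in these 3 comparisons. In livers *Oasl1* had 17.3, 19.8 and 15 CPM in controls and 27.4, 25.6 and 11.7 in HSC-KO, which overlap. An exon of *Oasl1* overlaps *Gm13822* on the opposite strand.

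*Oas3*, the longest of the synthetases, had under 1 CPM in every EC library. It had 276, 295 and 315 CPM in control and 79.7, 104 and 91.3 in HSC-KO macrophages (log2 fold change -1.69, standard error 0.14, adjusted p = 0.00024), and 93.8, 94.3 and 71.8 in Smad4FF and 11.5, 15.7 and 4.21 in Smad4FF cKO macrophages (log2 fold change -3.04, standard error 0.44, adjusted p = 0.0065). It fell in both. In livers it had 3.07, 4.73 and 3.79 CPM in controls and 1.11, 0.785 and 0.348 in HSC-KO, and fell (log2 fold change -2.36, standard error 0.44, adjusted p = 0.035). In ECs it was too low to test, at 0.732, 0.356 and 0 CPM in controls and 0.0742, 0.112 and 0 in HSC-KO. *Oas2*, which lies next to it, did not follow it in the macrophages of either experiment. In livers *Oas2* was lower in every HSC-KO library too, without passing the test (log2 fold change -0.71, standard error 0.26, adjusted p = 0.29). In ECs *Oas2* rose from 2.73, 0.808 and 2.24 to 22, 8.09 and 18.2 CPM, the largest rise among members whose mean log2 CPM reached 3 (log2 fold change 3.05, standard error 0.53, adjusted p = 0.0065), and in HSC-KO macrophages it had 78.4, 73.6 and 67.7 against 55.4, 38.9 and 51.4 CPM (0.59, standard error 0.15, adjusted p = 0.032). *Oasl2* rose in ECs, from 88.4, 91 and 80.0 to 155, 184 and 201 CPM (log2 fold change 1.06, standard error 0.14, adjusted p = 0.002). *Oas1a*, which has near copies in its cluster, was called in none of the 4 comparisons of mutant and control and was lowest against its control in Smad4FF cKO macrophages, at 164, 179.9 and 160.3 against 332, 316 and 237 CPM (-0.81, standard error 0.15, adjusted p = 0.019).

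Of the 6 sensors and kinases, *Zbp1*, which senses Z-form nucleic acid and can start necroptosis, moved most in the sorted cells, though not in livers (log2 fold change -0.02). In ECs it had 9.53, 6.72 and 5.61 CPM in controls and 38.7, 60.1 and 48.9 in HSC-KO, and rose (log2 fold change 2.76, standard error 0.26, adjusted p = 0.00044). In Smad4FF macrophages it had 93, 141 and 98.3 CPM and in Smad4FF cKO macrophages 51.1, 70.6 and 39.1, and fell (log2 fold change -1.05, standard error 0.25, adjusted p = 0.048). HSC-KO macrophages had 63.7, 90.6 and 86.4 against 90.9, 94.9 and 143 CPM in controls, which touched but did not overlap (log2 fold change -0.45, standard error 0.21, adjusted p = 0.19). *Ifi204*, a DNA sensor of the PYHIN family, had a log2 fold change below 0 in all 4 comparisons and passed both thresholds in livers, where it fell from 9.75, 12.9 and 12.6 to 5.83, 5.94 and 5.32 CPM (log2 fold change -1.04, standard error 0.17, adjusted p = 0.02). In ECs *Ifi204* had 125, 126 and 118 CPM in controls and 91.1, 72.3 and 59.9 in HSC-KO, so that it went against most of the module there (log2 fold change -0.72, standard error 0.17, adjusted p = 0.02). The RNA sensors *Ifih1* (MDA5) and *Dhx58* (LGP2) and the kinase gene *Eif2ak2* (PKR) had adjusted p-values of 0.027, 0.016 and 0.029 in ECs with log2 fold changes of 0.51, 0.86 and 0.53, all under 1. In HSC-KO macrophages the same 3 genes lay between -0.13 and 0.02. *Ifi203* had log2 fold changes of 0.10 in ECs and -0.39 in Smad4FF cKO macrophages, and it shares exons with *Mndal*.

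*Isg15* encodes the ubiquitin-like protein that gives its pathway the name, and had the smallest adjusted p of the members in ECs. It had 37.2, 34.9 and 31.6 CPM in control and 108, 139.8 and 151 in HSC-KO ECs, and rose (log2 fold change 1.94, standard error 0.16, adjusted p = 0.00025). In HSC-KO macrophages it did not separate, with 39, 40.1 and 73.7 CPM in controls and 36.5, 72.6 and 48.8 in HSC-KO (log2 fold change 0.05, standard error 0.32, adjusted p = 0.94). Smad4FF macrophages had 79.7, 68.7 and 44.2 and Smad4FF cKO macrophages 29.7, 45.5 and 32.2 CPM, which overlap (log2 fold change -0.84, standard error 0.25, adjusted p = 0.097). *Usp18* encodes the protease that removes ISG15 and dampens IFNAR2, and rose in ECs from 37.4, 33.1 and 32.9 to 70.3, 78.4 and 91 CPM (log2 fold change 1.21, standard error 0.14, adjusted p = 0.0012). In Smad4FF cKO macrophages it was lower in every library, at 24.6, 35.7 and 16.5 against 48.6, 81 and 44 CPM, without passing the test (log2 fold change -1.18, standard error 0.33, adjusted p = 0.079). *Herc6*, the ISG15 ligase of mice, rose in ECs from 21.6, 19 and 21.9 to 40.3, 48.1 and 57.7 CPM (log2 fold change 1.22, standard error 0.17, adjusted p = 0.0024). *Trim25*, a ubiquitin ligase that acts with RIG-I, was not called in any of the 4 comparisons of mutant and control and had a log2 fold change of 0.15 in ECs, and its control macrophages were spread from 98.4 to 309 CPM.

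The pair *Rsad2* and *Cmpk2* lie 12752 bases apart on chromosome 12 and are transcribed away from each other. *Rsad2* encodes viperin, which makes a chain-terminating nucleotide, and *Cmpk2* a mitochondrial nucleotide kinase. In ECs *Rsad2* had 109, 167 and 152 CPM in controls and 749, 1024 and 1396 in HSC-KO, and rose (log2 fold change 2.89, standard error 0.28, adjusted p = 0.00055). In macrophages it fell, from 137, 128 and 130.1 to 59.8, 66.8 and 40.5 CPM in HSC-KO (log2 fold change -1.24, standard error 0.19, adjusted p = 0.0035) and from 67.3, 71.4 and 64.1 to 23.6, 29.4 and 14.6 in Smad4FF cKO (log2 fold change -1.58, standard error 0.24, adjusted p = 0.0084). It was called in all 4 comparisons, since it also rose in livers, from 12.2, 14 and 10.3 to 50.3, 63.2 and 26 CPM (log2 fold change 1.93, standard error 0.31, adjusted p = 0.021). *Cmpk2* had log2 fold changes of the same sign and smaller size. It rose in ECs from 36.7, 37.9 and 26.1 to 84.9, 83.8 and 113 CPM (log2 fold change 1.49, standard error 0.19, adjusted p = 0.0019), and in HSC-KO macrophages it had 20.1, 18.3 and 15.8 against 34.3, 33.4 and 31.9 CPM (log2 fold change -0.88, standard error 0.14, adjusted p = 0.0042), under the size needed for a call. Smad4FF cKO macrophages had 6.62, 7.95 and 5.36 against 12.9, 9.71 and 9.22 CPM (-0.67, standard error 0.22, adjusted p = 0.12), and HSC-KO livers 18.3, 23 and 10.8 against 10.1, 10.8 and 9.93 (0.76, standard error 0.26, adjusted p = 0.24).

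The other members of that group changed less. *Slfn5*, a Schlafen protein, fell in Smad4FF cKO macrophages from 64.1, 74.4 and 62 to 39.6, 20.0 and 32.1 CPM (log2 fold change -1.13, standard error 0.24, adjusted p = 0.031) and had a log2 fold change of 0.79 with adjusted p = 0.0053 in ECs. *Trim30a* had 0.85 with adjusted p = 0.017 in ECs. *Samd9l* had the highest log2 fold change of the members in Smad4FF cKO macrophages (0.15, standard error 0.15, adjusted p = 0.65). It had 24.5, 24.8 and 26.9 against 26, 23.9 and 18.7 CPM, and its groups overlap. *Bst2*, or tetherin, which holds virus particles on the cell surface, was among the highest members per length and was called in none of the 4, with log2 fold changes from -0.13 to 0.57. The Mx GTPases were not called in these 4 comparisons either. *Mx1* and *Mx2* were each higher in every HSC-KO macrophage library, with log2 fold changes of 0.76 with adjusted p = 0.11 and 0.76 with adjusted p = 0.091. In ECs *Mx1* was low, at 0.976, 0.837 and 1.81 CPM in HSC-KO against 0.488, 0.145 and 0.285 in controls (1.96, standard error 0.60, adjusted p = 0.055). The control ECs held 40, 9 and 21 counts of it.

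*Helz2*, a helicase and nuclear receptor coactivator, had the largest fall of the module. It lies at chr2:181227615-181242027 on the minus strand. Control macrophages had 232, 185 and 124 CPM and HSC-KO macrophages 8.09, 6.91 and 7.90 (log2 fold change -4.56, standard error 0.25, adjusted p = 6.4e-05). Smad4FF macrophages had 120.3, 119.6 and 117 CPM and Smad4FF cKO macrophages 6.03, 10.5 and 6.63 (log2 fold change -3.94, standard error 0.23, adjusted p = 0.00014). It fell in both experiments to levels of the same order. In ECs *Helz2* rose, from 36, 34.8 and 35.9 to 70.9, 78 and 109 CPM (log2 fold change 1.27, standard error 0.18, adjusted p = 0.0025), and livers had 196, 202 and 217 in controls and 224, 228 and 219 in HSC-KO, a small change (log2 fold change 0.13, standard error 0.11, adjusted p = 0.75). The ADP-ribosyltransferase genes *Parp9* and *Parp14* and the ligase gene *Dtx3l* did not follow it in HSC-KO macrophages. Their log2 fold changes there were -0.11, -0.12 and 0.14. In Smad4FF cKO macrophages they were -0.57, -0.45 and -0.51, and in ECs 0.56, 0.40 and 1.18, in the direction of *Helz2* but with none called. *Parp9* and *Dtx3l* share a bidirectional start, overlap on opposite strands, and *Dtx3l* was uneven among replicates, with 74.2, 209 and 389.8 CPM in control macrophages.

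Of the 6 remaining proteins, *Ifi44* and *Ifi27l2a* were called in ECs. *Ifi44* rose there from 99.2, 86.6 and 81.7 to 180.4, 291 and 359 CPM (log2 fold change 1.63, standard error 0.25, adjusted p = 0.0038). It was the member with the highest log2 fold change in HSC-KO macrophages, with 29.1, 31.3 and 42.6 CPM in controls and 42.4, 92.3 and 57.3 in HSC-KO, groups that overlap (log2 fold change 0.90, standard error 0.29, adjusted p = 0.067), and was lower in every Smad4FF cKO library, at 11.7, 14.1 and 6.54 against 31.8, 23.3 and 18.8 (log2 fold change -1.19, standard error 0.31, adjusted p = 0.063). *Ifi27l2a*, a small hydrophobic protein, rose in ECs from 6.15, 2.68 and 2.40 to 23.4, 19.3 and 27.7 CPM (log2 fold change 2.64, standard error 0.38, adjusted p = 0.0029), yet remained far under the 434 to 659.7 CPM of control macrophages. *Lgals3bp*, a secreted glycoprotein, had the largest fall in ECs, with 1290.3, 1179.5 and 1264 CPM in controls and 825, 550.4 and 517 in HSC-KO (log2 fold change -0.98, standard error 0.21, adjusted p = 0.017), just under the size of a call. It was also lower in HSC-KO macrophages, at 1606, 1139 and 1346 against 2124, 1917 and 2080.2 (-0.58, standard error 0.16, adjusted p = 0.04). *Xaf1*, *Rtp4* and *Ifi35* had log2 fold changes of 0.98, 0.69 and 0.70 in ECs with adjusted p-values of 0.002, 0.015 and 0.025, and of -0.56, -0.97 and -0.15 in Smad4FF cKO macrophages.

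**Figure D3:**
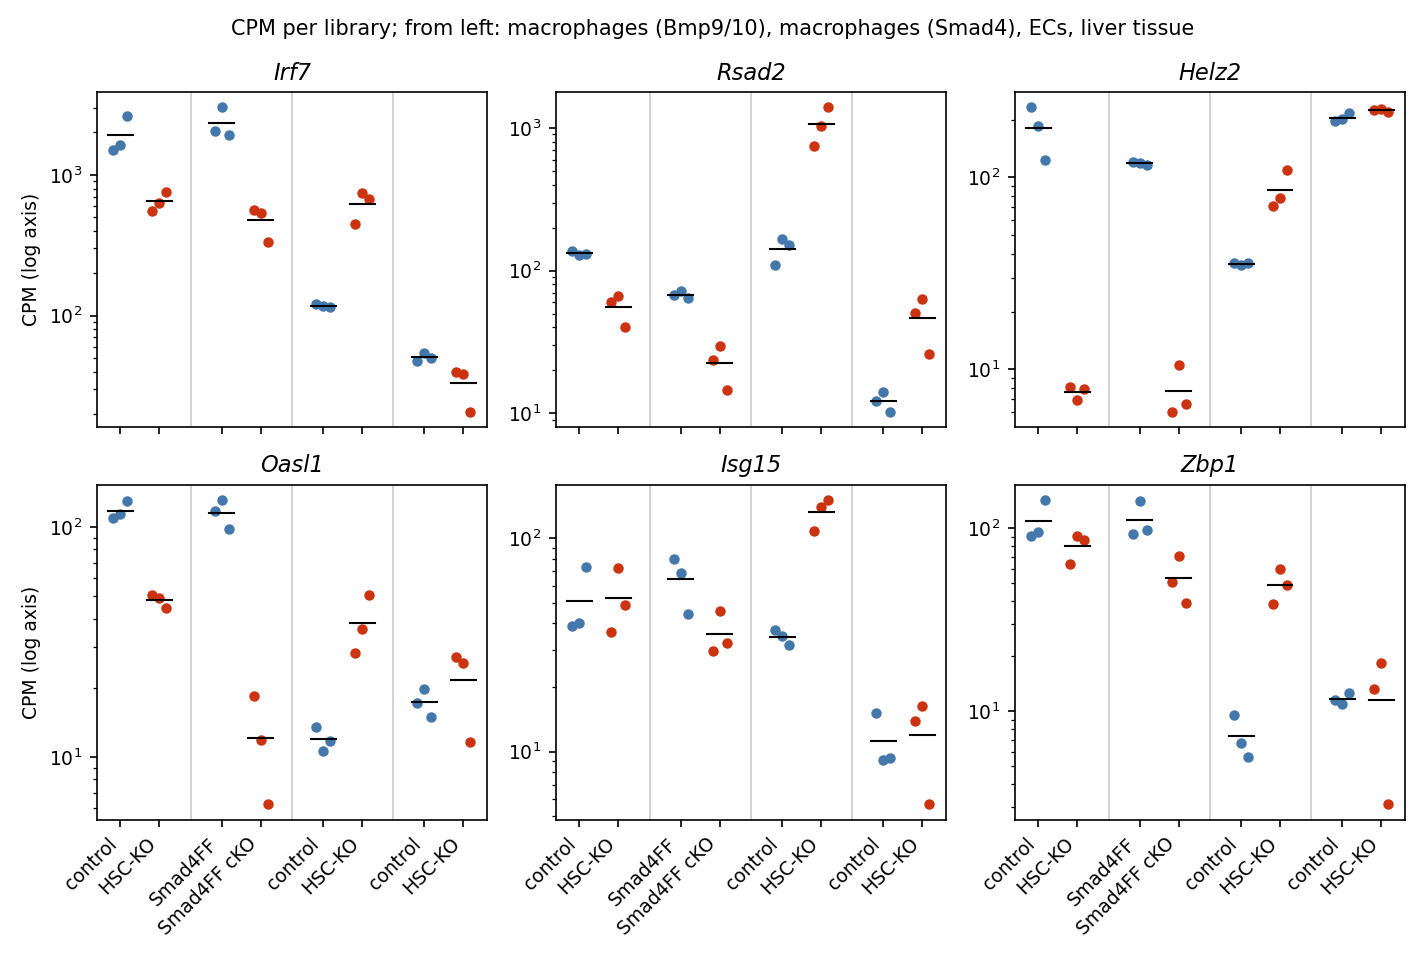
CPM in each library, on log axes, for 6 members that several comparisons turn on, with points for single libraries of controls (blue) and mutants (red) and bars for group means. *Irf7*, *Rsad2*, *Helz2* and *Oasl1* are higher in HSC-KO than control ECs and lower in both kinds of mutant macrophage, while *Isg15* overlaps between the macrophage groups.

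All 5 members called lower in HSC-KO macrophages, *Helz2*, *Irf7*, *Oas3*, *Oasl1* and *Rsad2*, were also called lower in Smad4FF cKO macrophages, where they are 5 of 9. Over all genes, 317 of the 872 called lower in HSC-KO macrophages (36.4%) were also among the 467 called lower in Smad4FF cKO macrophages, which is 67.9% of those. These comparisons share no libraries. Among the 15 members called higher in ECs, 4 of the 5 called lower in HSC-KO macrophages and 6 of the 9 called lower in Smad4FF cKO macrophages were found. Of all genes called higher in ECs, 7.06% and 5.11% were called lower in the 2 macrophage comparisons, which are 9.98% and 13.5% of the genes called lower there. In all, 19 of the 40 members were called in at least 1 comparison and 21 in none, against 20.3% of all genes tested in at least 1. No call in HSC-KO macrophages was lost when any 1 library was left out, and without control replicate 1 there were 8, with *Ifit2* and *Ifit3* lower and *Mx2* higher. In ECs the only call lost was that of *Oasl2*, without HSC-KO replicate 3 (log2 fold change 0.97). In Smad4FF cKO macrophages *Ifit3*, *Slfn5* and *Zbp1* each lost the call when single libraries were left out, in 3, 5 and 5 of 6 cases, with adjusted p-values up to 0.095, 0.092 and 0.16. The liver calls were the least stable. Leaving out control replicate 2, control replicate 3 or HSC-KO replicate 1 left 0 of 3, leaving out control replicate 1 left *Ifi204*, leaving out HSC-KO replicate 2 left *Rsad2*, and without HSC-KO replicate 3 the calls were *Rsad2*, *Oas3* and *Cmpk2*.

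Whether the change in macrophages differed from that in ECs was tested directly, as the interaction of cell type and genotype over 12 libraries. The change was lower in macrophages than in ECs for 16 of 40 members and higher for none, where 6.00% of all genes were called lower and 6.32% higher. *Helz2* differed most (-5.83, standard error 0.33, adjusted p = 3.9e-06), followed by *Rsad2* (-4.12, standard error 0.37, adjusted p = 4.5e-05), *Irf7* (-3.95, standard error 0.36, adjusted p = 4.7e-05), *Zbp1* (-3.19, standard error 0.36, adjusted p = 0.00021) and *Oasl1* (-2.96, standard error 0.27, adjusted p = 4.8e-05). The others were *Ifi27l2a*, *Ifit3*, *Oas2*, *Cmpk2*, *Ifit1*, *Isg15*, *Usp18*, *Ifit2*, *Herc6*, *Rtp4* and *Oasl2*, from -2.82 to -1.10. For 35 of 40 members the difference was below 0, and the median was -0.97, against 0.06 over all genes. Since 3 mice gave libraries of both cell types, the fit was repeated in limma voom with mouse as a random block, and the same 16 members were called. The paired libraries of these mice had module medians of 5.88 in ECs and 6.84 in macrophages of the shared control, and of 6.81 and 6.53, and 6.65 and 6.41, in the shared HSC-KO mice, so the EC library was the lower of the pair in the control and the higher in both HSC-KO mice.

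**Figure D4:**
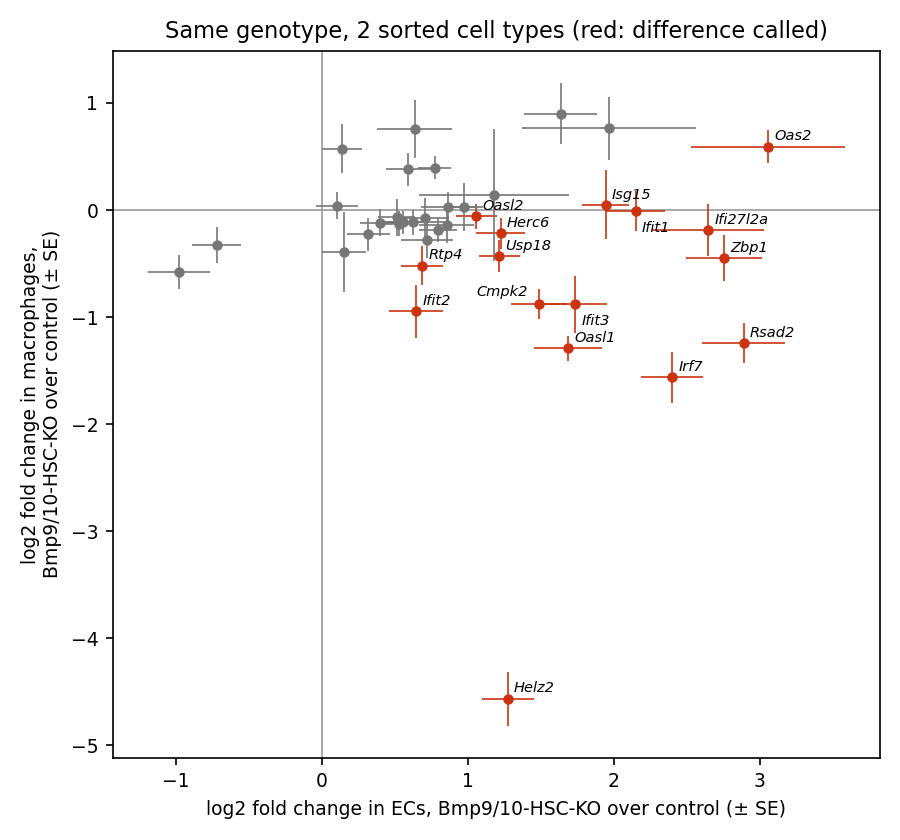
Log2 fold change in HSC-KO ECs (x axis) against that in HSC-KO macrophages (y axis) for the 39 members tested in both, with bars of 1 standard error and the 16 members whose difference was called in red. *Irf7*, *Rsad2*, *Oasl1* and *Helz2* lie to the lower right, higher in ECs and lower in macrophages, with *Helz2* at -4.56 on the y axis.

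Between the macrophages of the 2 experiments the difference was called for 2 of 40 members, both with the higher change in HSC-KO macrophages, as were 1.42% of all genes, and none the other way, as were 1.18%. The change of *Oasl1* was less negative in HSC-KO than in Smad4FF cKO macrophages (difference 2.00, standard error 0.40, adjusted p = 0.023), and *Ifi44* differed as well (difference 2.14, standard error 0.46, adjusted p = 0.032). In the 12 fits that each left out 1 library *Ifi44* lost its call in 9 and *Oasl1* in 8. Both calls were lost without control replicate 2 or 3 or HSC-KO replicate 2 of the HSC-KO experiment, or without Smad4FF replicate 1, 2 or 3. For 36 of 40 members the difference was above 0, with a median of 0.63 against 0.08 over all genes. *Helz2* was among the 4 exceptions, with a difference of -0.57 and adjusted p = 0.43.

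ECs and livers differed for 12 members, all with a higher value in ECs, against 3.88% of all genes higher and 2.65% lower. *Irf7* (3.06, standard error 0.35, adjusted p = 0.00034), *Ifi27l2a* (3.22, standard error 0.48, adjusted p = 0.0019) and *Oas2* (3.81, standard error 0.65, adjusted p = 0.0043) led this list, and *Irf9*, *Rtp4*, *Helz2*, *Ifit1*, *Zbp1*, *Dhx58*, *Isg15*, *Herc6* and *Trim30a* had adjusted p-values from 0.0047 to 0.047. Only 7 calls were left without EC control replicate 2 and 6 without EC HSC-KO replicate 3, while the highest count with 1 library left out was 16. In the 12 fits that each left out 1 library, *Trim30a* lost its call in 10, *Herc6* in 9, *Zbp1* in 8, *Isg15* in 7 and *Dhx58* in 5 (adjusted p up to 0.11, 0.084, 0.060, 0.076 and 0.072), and *Helz2* in 1 by its size. *Rsad2* rose in both and its difference was 0.99 with adjusted p = 0.23. Macrophages and livers differed for 6 members: *Helz2*, *Rsad2*, *Cmpk2*, *Ifit2* and *Oasl1* had the lower change in macrophages and *Oas2* the higher one, against 3.32% and 4.24% of all genes. The call of *Ifit2* was lost in 9 of the 12 fits that each left out 1 library (adjusted p up to 0.080) and that of *Oas2* in 5 of 12 (up to 0.076). The comparisons of HSC-KO macrophages, ECs and livers share mice or libraries in these differences, and each uses the same libraries as the comparison between genotypes it is built from. The sorted cells came from mice of 8 to 10 weeks and the livers from mice of 12 weeks, so tissue and age cannot be told apart.

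The levels in control mice differed by cell type. Control macrophages were above control ECs, with no overlap, for 27 members and below for 3, against 24.5% and 34.8% of all genes tested in either table. By test, 16 of 40 members were higher in macrophages and *Ifi44* was lower, against 18% and 17.9% of all genes in these directions. *Oas3*, at 276 to 315 CPM in control macrophages, had 60, 22 and 0 counts in the control ECs, so its log2 difference is imprecise (9.83, standard error 1.04, and 9.20 to 10.92 with 1 library left out). Among the others *Ifi27l2a* (log2 difference 7.31), *Mx1* (5.98), *Oas2* (4.83), *Irf7* (4.21) and *Zbp1* (4.10) were furthest apart. All 5 OAS genes were higher in macrophages. Control ECs were in turn above control livers without overlap for 28 members and below for 8, against 43.8% and 33.6% of all genes, and control macrophages above control livers for 36 and below for none, against 38.6% and 37.4%. Macrophages, ECs and livers come from separately prepared tables, so cell type and table cannot be told apart in these levels. Levels against livers were not tested. Between the control macrophages of the 2 experiments 4 members differed, *Ifit1*, *Oas3*, *Oasl2* and *Cmpk2*, all lower in Smad4FF, with log2 differences of -1.46, -1.79, -1.49 and -1.67, where 5.28% of all genes were called lower and 7.17% higher. Experiment and genotype of these controls cannot be told apart.

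**Figure D5:**
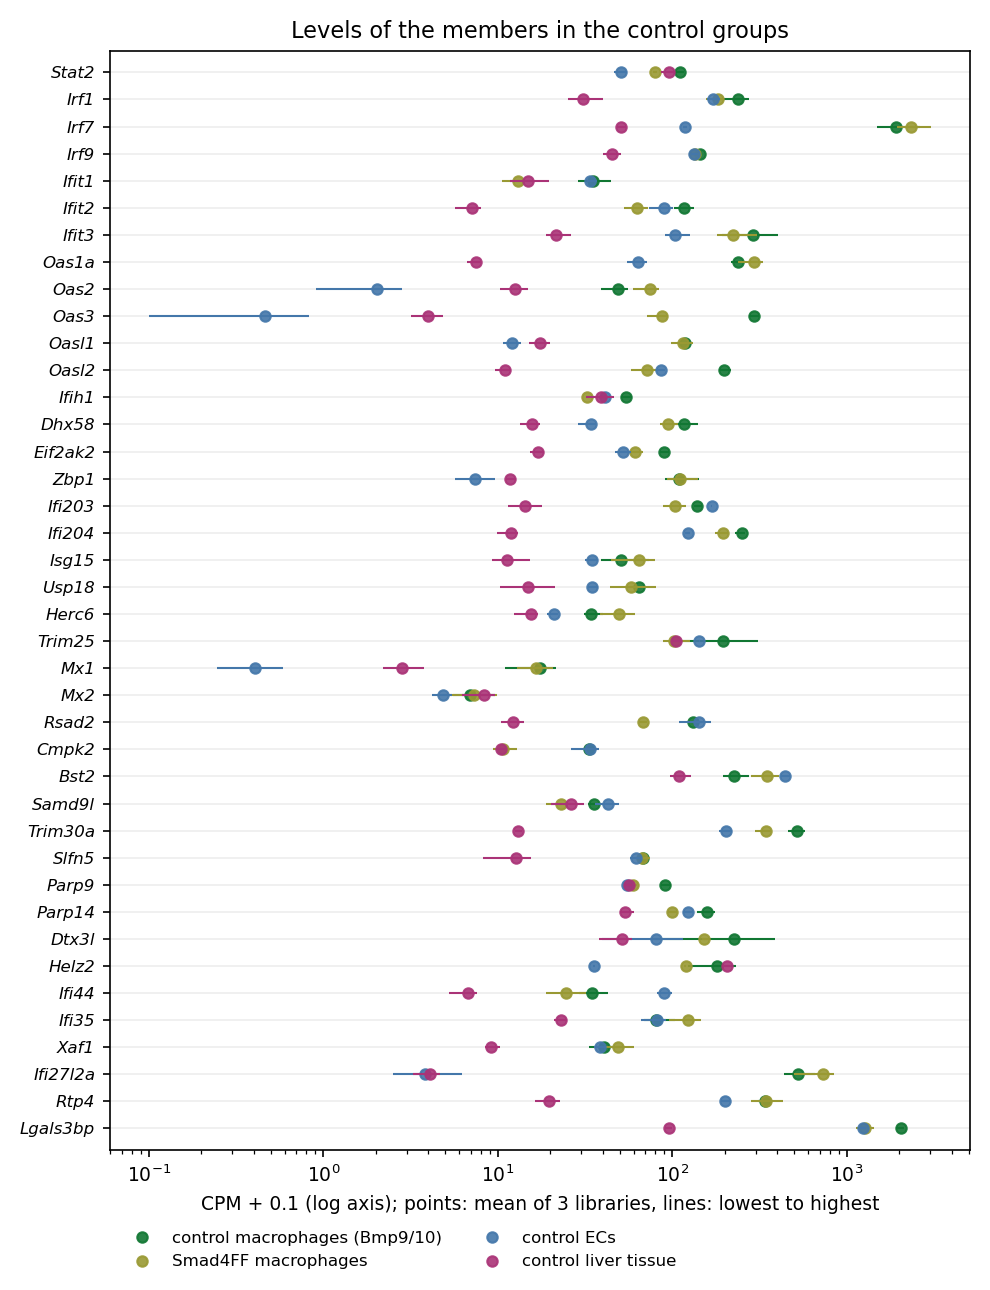
Mean CPM + 0.1 of each member, on a log axis, in control macrophages, Smad4FF macrophages, control ECs and control livers, with lines from the lowest to the highest of 3 libraries. *Oas3*, *Ifi27l2a*, *Mx1*, *Oas2* and *Irf7* show the widest gaps between macrophages and ECs, and most liver values lie to the left.

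Levels of different genes were compared per kilobase of exon. In control macrophages *Ifi27l2a* came first at 1131 ± 259 CPM per kb (SD, n = 3), then *Lgals3bp* at 717 ± 38, *Irf7* at 507 ± 163, *Bst2* at 249 ± 47 and *Ifit3* at 166 ± 61. The SDs of *Ifi27l2a* and *Irf7* are a large part of their means, and *Bst2* and *Ifit3* do not differ beyond their spread. In control ECs the order began with *Bst2* at 487 ± 30 and *Lgals3bp* at 437 ± 20, far above *Rtp4* at 94.4. In HSC-KO ECs *Bst2* still led at 536, and *Rsad2* at 244 ± 75, *Lgals3bp* at 222 ± 59, *Ifit3* at 197 ± 42, *Isg15* at 176 ± 30 and *Irf7* at 164 ± 42 came next, and no neighbours among these 5 differed beyond their spread. Livers were led by *Bst2* at 122, and *Lgals3bp* was next at 33.7. The 40 members together took 0.375-0.440% of counts in control ECs and 0.685-0.951% in HSC-KO ECs, and 0.875-1.03% in control and 0.651-0.742% in HSC-KO macrophages.

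Genes that act before the module in the pathway were read from fixed lists. Over all genes, 7.68% were called higher and 6.01% lower in ECs, and 6.32% and 5.34% in HSC-KO macrophages. The shares were 2.76% and 2.67% in Smad4FF cKO macrophages, and 1.03% and 1.45% in livers. With 10 to 17 genes tested per list below, 1 call in HSC-KO macrophages or ECs is near these shares. Of 20 interferon genes in the tables, 13 had no count in any library, and *Ifng* was the only one above 1 CPM in any library, at 1.10 CPM or less. *Ifng* was the only ligand high enough to test, in the macrophage comparisons alone, and was not called there. No ligand could be tested in ECs or livers. Of the 11 receptor and kinase genes, *Ifnar1*, a subunit of the type I receptor, rose in HSC-KO macrophages, from 77.5, 55.2 and 57.5 to 154, 152 and 139.6 CPM (log2 fold change 1.23, standard error 0.15, adjusted p = 0.0016). In ECs *Ifngr1*, a subunit of the interferon gamma receptor, rose from 95.2, 106 and 114 to 354, 467 and 457 CPM (log2 fold change 2.02, standard error 0.16, adjusted p = 0.00024), and *Jak1* fell from 1871, 2118 and 1936 to 636, 512 and 453 (log2 fold change -1.89, standard error 0.19, adjusted p = 0.00063). None of this list was called in Smad4FF cKO macrophages or in livers. Of 17 sensors and adaptors upstream of interferon, the mitochondrial adaptor *Mavs* was called lower in HSC-KO macrophages (-1.04), Smad4FF cKO macrophages (-1.02) and ECs (-1.21). *Ikbke*, a kinase for IRF3 and IRF7, fell in HSC-KO macrophages from 25.4, 19.5 and 28.6 to 2.16, 2.58 and 5.19 CPM (log2 fold change -2.89, standard error 0.36, adjusted p = 0.0015), and *Tlr9* rose there (1.42). ECs also had lower *Tlr4* (-1.13) and *Irf8* (-1.57). Among 14 negative regulators *Socs3* (1.25) and *Trex1* (3.07) rose in HSC-KO macrophages and *Socs1* fell in ECs (-1.07), and none was called in the other 2 comparisons. The *Trex1* values were uneven, at 255, 34.4 and 288 CPM in HSC-KO against 10.5, 33.3 and 25.1 in controls.

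Other interferon-induced families were read the same way. Of 20 guanylate-binding and immunity-related GTPases, 13 rose and none fell in ECs, with *Gbp2* from 62.9, 59.1 and 59.8 to 151, 217 and 226 CPM (log2 fold change 1.71, standard error 0.17, adjusted p = 0.00066) and *Igtp* from 57.4, 46.2 and 52.6 to 206, 232 and 204 (log2 fold change 2.04, standard error 0.14, adjusted p = 0.00012). In HSC-KO macrophages 5 of the 19 tested fell and none rose, in Smad4FF cKO macrophages 4 of 20 fell and none rose, and in livers 1 fell. Over all genes 7.68% were called higher in ECs, and 5.34%, 2.67% and 1.45% were called lower in the other 3 comparisons in that order. *Gbp4* moved as *Irf7* did, from 31.7, 30.8 and 52.6 to 10.1, 12.5 and 17.6 CPM in HSC-KO macrophages (log2 fold change -1.52, standard error 0.28, adjusted p = 0.0091) and from 90.1, 65.9 and 88.6 to 140.0, 173 and 185 in ECs (log2 fold change 1.02, standard error 0.17, adjusted p = 0.0059). Of 53 further interferon-stimulated genes in the tables, 12 rose and 3 fell of 46 tested in ECs, 2 rose and 11 fell of 50 in HSC-KO macrophages, 0 rose and 13 fell of 51 in Smad4FF cKO macrophages, and 2 fell of 50 in livers. The shares of all genes were 7.68% higher and 6.01% lower in ECs, 6.32% and 5.34% in HSC-KO macrophages, 2.76% and 2.67% in Smad4FF cKO macrophages, and 1.45% lower in livers, so the 3 lower in ECs are near the share of all genes and the 2 higher in HSC-KO macrophages are below it. The EC-lower genes were *Ifitm1* (-2.97), *Ifitm2* (-1.12) and the chemokine gene *Cxcl9* (-2.16), and *Ifitm3* fell in both kinds of mutant macrophage (-1.40 and -2.23). *Apol9a* and *Apol9b* were the reverse pair, with 6.87 and 6.83 in ECs and -3.66 and -2.28 in HSC-KO macrophages.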

How the data were processed

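RNA was sequenced in 24 libraries (4 tables of 6). The authors aligned reads to mm10 with HISAT2 and the deposited tables hold raw counts per gene from featureCounts. Labels name the Hieff NGS kit and the methods an Illumina kit. The members and lists were chosen with earlier results of these data known. All 40 members are accounted for, and values per library are given for *Stat2*, *Irf1*, *Irf7* and *Irf9*, for up to 10 called members per comparison and per difference by adjusted p, and for the largest rise and fall among members with mean log2 CPM of at least 3; further members were named for completeness after their values were seen. Genes were filtered with filterByExpr (minimum count 10, total 15), scaled by TMM and tested with edgeR 4.0.16 quasi-likelihood fits in R 4.3.3. SEs are |log2 fold change| over the root of F. Differences of changes were interaction terms. In fits over 2 tables, symbols that occur more than once were dropped, and no member was among them. The script was tested on simulated counts. Alternatives were DESeq2 1.42.0, no filter, library size alone, a fold threshold in the test, an *Xist* term, a replicate block, limma 3.58.1 with mouse as block, 1 fit over all macrophages, and leaving out each library. Coordinates are GENCODE M21 on GRCm38. P-values measure the spread between mice within a group.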

Additional observations from a re-analysis of the deposited data

Results flagged for a closer look

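The change between genotypes differed between cell types, livers or experiments for these members, by the interaction test over 12 libraries. Each is given with the difference of its log2 fold changes. The livers were from mice of 12 weeks and the sorted cells from mice of 8 to 10 weeks. Between HSC-KO macrophages and ECs the change was lower in macrophages for *Helz2* (-5.83), *Rsad2* (-4.12), *Irf7* (-3.95), *Zbp1* (-3.19), *Oasl1* (-2.96), *Ifi27l2a* (-2.82), *Ifit3* (-2.60), *Oas2* (-2.45), *Cmpk2* (-2.35), *Ifit1* (-2.14), *Isg15* (-1.88), *Usp18* (-1.63), *Ifit2* (-1.58), *Herc6* (-1.43), *Rtp4* (-1.20) and *Oasl2* (-1.10). Between ECs and livers it was higher in ECs for *Oas2* (3.81), *Ifi27l2a* (3.22), *Irf7* (3.06), *Zbp1* (2.81), *Ifit1* (1.94), *Isg15* (1.89), *Rtp4* (1.57), *Irf9* (1.31), *Dhx58* (1.29), *Herc6* (1.20), *Helz2* (1.19) and *Trim30a* (1.12). Of these, *Trim30a*, *Herc6*, *Zbp1*, *Isg15* and *Dhx58* lost the call in 5 to 10 of the 12 fits that left out 1 library. Between macrophages and livers it was lower in macrophages for *Helz2* (-4.71), *Rsad2* (-3.20), *Cmpk2* (-1.66), *Oasl1* (-1.63) and *Ifit2* (-1.63) and higher for *Oas2* (1.28). There *Ifit2* and *Oas2* lost it in 9 and 5 of 12. Between HSC-KO and Smad4FF cKO macrophages it was higher, that is less negative or positive, in HSC-KO macrophages for *Ifi44* (2.14) and *Oasl1* (2.00), calls lost in 9 and 8 of 12.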

How the results depend on the processing

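No called member changed sign under any alternative run, and among the values of the members that the naming rule chose 1533 kept their direction and their side of the threshold under alternatives, 160 lost the call, 7 gained it and 9, none of them called, changed sign. Members outside that choice gained calls too, as the counts of calls show. The depth of 60911527 counts or more limits little outside the lowest members, *Oas3* and *Mx1* in ECs, and the 3 mice per group limit the tests. When the test itself required a change beyond 1 on the log2 scale, the calls were 2 in HSC-KO macrophages, 5 in Smad4FF cKO macrophages, 9 in ECs and 0 in livers, and for the differences 10 (macrophages and ECs), 3 (ECs and livers), 2 (macrophages and livers), 0 (both macrophage experiments) and 1 between the control macrophages. The calls that this test ended in HSC-KO macrophages were *Irf7* (adjusted p = 0.091), *Oasl1* (0.073) and *Rsad2* (0.34). In Smad4FF cKO macrophages they were *Ifit3*, *Rsad2*, *Slfn5* and *Zbp1*, and in ECs *Cmpk2*, *Helz2*, *Herc6*, *Ifi44*, *Oasl2* and *Usp18*. Scaling by library size alone moved the median of all genes from 0.0047 to 0.30 in ECs, from 0.04 to 0.13 and 0.19 in HSC-KO and Smad4FF cKO macrophages and from -0.01 to -0.12 in livers, and gave 22 calls in ECs and 22 for ECs against livers. DESeq2 called 5, 11, 16 and 3 members in HSC-KO macrophages, Smad4FF cKO macrophages, ECs and livers. Replicate numbers did not pair the libraries (correlations of same-numbered deviations from -0.21 to 0.23), and with the replicate block the calls were 5, 10, 17 and 1 in that order. With the *Xist* term the calls were 6 in HSC-KO macrophages, 16 in ECs and 3 in livers, 2, 16, 10 and 7 for the differences (both macrophage experiments, macrophages and ECs, ECs and livers, macrophages and livers) and 18 and 5 between controls, and it ended those of *Ifi204* in livers (-0.997), of *Herc6* (1.09, adjusted p = 0.061) and *Trim30a* (1.12, adjusted p = 0.066) between ECs and livers and of *Oas2* (1.15, adjusted p = 0.057) between macrophages and livers, all by edgeR. Leaving out 1 library gave 5 to 8 calls in HSC-KO macrophages, 6 to 12 in Smad4FF cKO macrophages, 14 to 17 in ECs, 0 to 3 in livers, 0 to 3 between the macrophage experiments, 16 to 20 between macrophages and ECs, 6 to 16 between ECs and livers, 4 to 7 between macrophages and livers, 17 to 19 between control macrophages and ECs and 4 to 6 between the control macrophages. Members with no call and a value near 0 turned sign: *Irf1* in livers (-0.10 by library size alone, -0.20 to 0.26 with 1 library left out), *Irf1* in Smad4FF cKO macrophages (-0.11 to 0.31) and *Irf9* there (-0.00324 in the fit over 12 macrophage libraries, -0.040 to 0.11 with 1 left out). The causes were not tested.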
